A study of Mus musculus with 24 samples.

Results

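The nucleus accumbens (NAc) was compared with the prefrontal cortex (PFC) in control mice (Ctrl) that had been kept under stable lighting. The comparison used 12 of the 24 bulk RNA-seq libraries of the series, 6 of NAc and 6 of PFC, chosen by the region, sampling time and treatment given in the sample labels and by no measured value. All came from male C57BL/6J wildtype mice that were 8 weeks old on purchase and were entrained for 2 weeks to 12 h of light and 12 h of dark, a cycle that stayed unchanged for Ctrl. Tissue was taken on day 10 of the experiment at Zeitgeber Time (ZT, hours after lights on) ZT1, early in the light phase, or at ZT13, early in the dark phase, with 3 libraries for each combination of region and time. The remaining 12 libraries, from mice under chronic jet lag (CJL, in which the lights were advanced by 6 h every 2 days), are used for a side-by-side reading at the end and in an alternative fit of all 24 libraries. By the study's methods both regions were cut by hand from successive coronal slices of the same mice, with the anterior commissure as the landmark for NAc. The labels do not tell which NAc and which PFC library share a mouse, so the libraries were treated as independent and the p-values measure the spread between libraries.

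NAc is the ventral part of the striatum. Most of its neurons are GABAergic projection neurons, which either carry the dopamine receptor Drd1 together with the peptide genes Tac1 and Pdyn (D1 type) or carry Drd2 together with Penk and the adenosine receptor Adora2a (D2 type). Sparse cholinergic and GABAergic interneurons lie among them, and dopamine axons arrive from the midbrain. PFC is a layered cortex whose principal cells are glutamatergic pyramidal neurons under the control of several classes of GABAergic interneuron. Bulk tissue mixes all of these with glia and vessels, and a lower value can come from fewer cells of a type or from less RNA per cell, which cannot be told apart here.

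Neuropeptide genes were among those that set the regions apart most clearly, and the promoters of 5 of them are shown because they cover the outcomes seen: Tac1 and Nts were higher in NAc, Cck and Vip were higher in PFC, and Sst was level. Each sequence is the RefSeq window (build GRCm38.p6) from 250 bases before to 50 after the annotated start, read 5′ to 3′ on the strand of the gene. The windows lie at chr6:7554811-7555110 (plus strand) for Tac1, chr10:102490369-102490668 (minus) for Nts, chr9:121495645-121495944 (minus) for Cck, chr10:5638968-5639267 (plus) for Vip and chr16:23890795-23891094 (minus) for Sst. Capitals mark TGACG or its reverse complement CGTCA, the core of the cAMP response element, whose full palindrome TGACGTCA contains both, overlapping.
Tac1: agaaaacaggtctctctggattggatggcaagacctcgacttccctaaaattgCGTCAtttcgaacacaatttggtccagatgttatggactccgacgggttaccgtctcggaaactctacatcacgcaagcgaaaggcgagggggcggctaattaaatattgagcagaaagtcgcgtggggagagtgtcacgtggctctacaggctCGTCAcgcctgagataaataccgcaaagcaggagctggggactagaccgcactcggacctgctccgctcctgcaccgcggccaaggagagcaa
Nts: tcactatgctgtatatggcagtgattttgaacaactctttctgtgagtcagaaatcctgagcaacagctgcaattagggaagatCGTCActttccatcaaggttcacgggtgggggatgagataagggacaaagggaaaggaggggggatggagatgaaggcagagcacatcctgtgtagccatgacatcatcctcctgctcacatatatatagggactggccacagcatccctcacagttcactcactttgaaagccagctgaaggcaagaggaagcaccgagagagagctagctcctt
Cck: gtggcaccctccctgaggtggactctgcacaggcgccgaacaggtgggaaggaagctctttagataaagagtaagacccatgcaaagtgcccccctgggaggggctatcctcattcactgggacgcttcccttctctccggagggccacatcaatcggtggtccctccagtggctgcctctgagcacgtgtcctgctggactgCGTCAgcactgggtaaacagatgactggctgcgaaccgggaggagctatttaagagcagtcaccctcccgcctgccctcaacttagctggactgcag
Vip: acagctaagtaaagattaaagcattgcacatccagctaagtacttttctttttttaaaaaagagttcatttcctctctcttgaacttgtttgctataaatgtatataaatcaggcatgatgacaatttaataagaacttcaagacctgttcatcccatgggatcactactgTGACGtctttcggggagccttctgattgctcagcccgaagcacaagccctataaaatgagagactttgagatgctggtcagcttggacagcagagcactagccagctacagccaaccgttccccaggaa
Sst: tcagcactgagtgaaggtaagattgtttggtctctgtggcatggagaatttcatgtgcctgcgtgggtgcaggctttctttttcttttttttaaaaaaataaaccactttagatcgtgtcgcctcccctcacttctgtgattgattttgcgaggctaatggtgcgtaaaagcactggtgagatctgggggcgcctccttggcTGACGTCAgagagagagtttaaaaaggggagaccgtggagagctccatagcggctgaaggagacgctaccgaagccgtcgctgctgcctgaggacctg
With the start counted as position 0, the capitals begin at -197 and -43 in Tac1, at -166 in Nts, at -47 in Cck, at -79 in Vip and at -48 in Sst, where they form the full palindrome. Of the 22 neuropeptide precursor genes tested, 17 had a window in the table, 11 of these (64.7%) held TGACG on either strand and 3 (Cartpt, Scg2 and Sst) held TGACGTCA. Over all 32851 windows of the table the shares were 20.8% and 1.79%, and over the 10559 tested genes with a window they were 35.2% and 3.64%. The core stood in promoters of peptide genes of either direction. Among the genes of at least 2-fold difference described next, TGACG stood in 23.4% of the 445 with a window that were higher in NAc and in 26.3% of the 285 that were lower. These matches describe letters only and bear on no factor.

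Expression was measured in FPKM, that is as fragments scaled to the length of the gene and to the size of the library, which allows levels to be compared between genes. The steps between the lowest FPKM values implied 18.1 to 21.3 M fragments in the NAc libraries and 21.4 to 24.6 M in the PFC libraries. This implied depth was thus lower in NAc, narrowly without overlap. It is approximate, since only 22.5% to 26.6% of the low values fell on whole steps. The clean reads listed by the study overlapped between the regions. The study's sequencing summary lists a lower base quality and mapping rate for every NAc library than for any PFC library, so region and sequencing conditions cannot be told apart. Markers of neighbouring tissue stood high in 3 libraries: those of the olfactory bulb in PFC ZT1 replicate 1 and those of the choroid plexus in PFC ZT13 replicate 1 and NAc ZT13 replicate 3. Counts of lists without these libraries are given with the neighbouring structures below. The first principal component held 53.6% of the variance and separated the regions, with scores from 29.15 to 53.57 in NAc and from -45.29 to -34.23 in PFC. Within NAc it also separated the times, since the ZT1 libraries lay at 43.48 or above and the ZT13 libraries at 36.57 or below.

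Genes were tested where 3 or more of the 12 libraries reached 1 FPKM. Of the 15455 such genes, 6980 (45.2%) differed between the regions (limma with the time as a covariate, adjusted p under 0.05). NAc was higher for 4605 of them (29.8% of all genes tested) and lower for 2375 (15.4%). This split depended on the scaling: the median of all genes lay at a log2 difference of 0.11, NAc minus PFC, and 66% of the calls were higher in NAc, against 50%, 49.9% and 49.6% after median-of-ratios scaling, quantile normalization and a correction for GC content and length. Most differences were small, and 5671 of the 6980 were under 2-fold. A stricter set asked also for a 2-fold difference and for no overlap between the 6 NAc and the 6 PFC values, and held 1123 genes (7.27%), 691 higher in NAc (4.47%) and 432 lower (2.8%). Without regard to the test or size, 3483 genes (22.5%) showed no overlap between the 6 and 6 values. Under these scalings the median of each list below kept its direction, except for the lists near 0 (interneurons, retinoic acid pathway, adrenergic and related receptors, and sodium, calcium and HCN channels). Each difference below is given on the log2(FPKM + 0.1) scale with its standard error, NAc minus PFC, which understates the change of genes near 0.

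**Figure D1:**
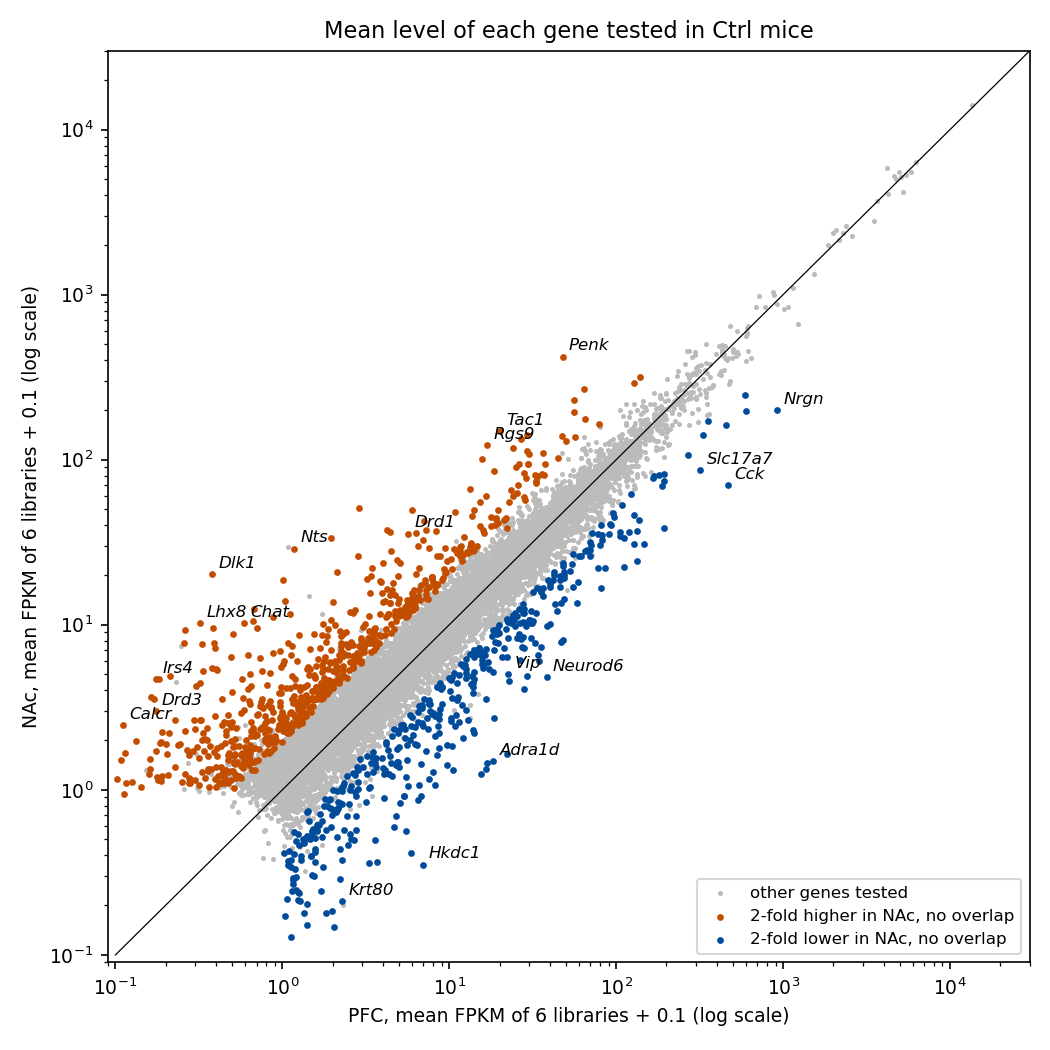
Mean FPKM of each of the 15455 genes tested in the 6 PFC libraries (x axis) and the 6 NAc libraries (y axis), both on a log scale after adding 0.1. The 691 genes that were 2-fold higher in NAc with no overlap (orange) lie above the line of equal levels and the 432 that were 2-fold lower (blue) below it, with Penk, Nts and Dlk1 far above and Cck, Neurod6 and Hkdc1 far below.

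The genes of largest difference are given first, taken among called genes without overlap between the 6 and 6 values. Each has an established name and a mean of at least 2 FPKM in the higher region. Higher in NAc stood first Dlk1 (ENSMUSG00000040856, build mm10, chr12:109452823-109463336, plus strand), an imprinted ligand-like transmembrane protein, with 12.2, 18.6 and 29.9 FPKM as the lowest, median and highest of the 6 NAc values against 0.156, 0.208 and 0.685 in PFC (log2 difference 5.77 ± 0.30, adjusted p = 4.29e-08). Next came Arhgap36 (5.20 ± 0.36), the LIM homeobox gene Lhx8 (5.10 ± 0.38), the orphan receptor Gpr101 (4.96 ± 0.31), the peptide gene Nts (4.80 ± 0.40), Irs4 (4.58 ± 0.35), the diacylglycerol kinase Dgkk (4.57 ± 0.27), Isl1 (4.57 ± 0.51), Nkx2-1 (4.55 ± 0.28), Igsf1 (4.50 ± 0.29) and the GABA-A receptor subunit Gabrq (4.42 ± 0.32). The non-coding Six3os1 (4.39 ± 0.25) lies across Six3 (3.86 ± 0.35) on the opposite strand, and since the use of strand in the counting is not given in the sources used here the reads of both cannot be told apart. Of these 12 genes, Arhgap36, Gpr101, Irs4, Dgkk, Igsf1 and Gabrq lie on the X chromosome. The X chromosome held 8.83% of the strict genes higher in NAc and 0.694% of those lower, against 3.52% of all genes tested.

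Lower in NAc stood first Hkdc1 (ENSMUSG00000020080, chr10:62383137-62422491, minus strand), a hexokinase-like gene, with 0.0664, 0.226 and 0.48 FPKM as the lowest, median and highest NAc value against 4.73, 6.89 and 8.51 in PFC (log2 difference -4.41 ± 0.21, adjusted p = 3.03e-08). It was followed by Trbc2, annotated as a T cell receptor constant segment (-4.33 ± 0.57), the zinc finger gene Ovol2 (-4.23 ± 0.36), the myosin light chain Myl4 (-3.95 ± 0.27), the adrenergic receptor Adra1d (-3.83 ± 0.29), Clec18a (-3.64 ± 0.37), Serpinb8 (-3.57 ± 0.33), the keratin Krt80 (-3.54 ± 0.26), Neurod6 (-3.39 ± 0.47), the netrin Ntn5 (-3.27 ± 0.22) and Tcap, known from muscle (-3.14 ± 0.31). Trbc2, Krt80 and Tcap were each listed at 0 in at least 1 NAc library. Among these 11 genes, Adra1d at 18.2 ± 2.15 FPKM (SD, n = 6), Myl4 at 22.1 ± 3.54, Trbc2 at 16.6 ± 2.05 and Neurod6 at 38.2 ± 5.62 were the well-expressed genes of PFC, and in NAc the 4 averaged 1.4 ± 0.993, 1.56 ± 1.12, 1.25 ± 1.3 and 4.7 ± 3.21 FPKM.

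The labels were checked against the genes that define the cells of each region. Of 27 genes shared by striatal projection neurons, 26 were higher in NAc and none lower, with a median log2 difference of 1.85 against 0.11 over all genes tested. The exception was the factor Foxp1 (0.42 ± 0.18, adjusted p = 0.0729), which deep cortical layers express too. Of 8 genes of the D1 type 7 were higher (median 1.56), and of 6 of the D2 type all (median 3.30). The exception here was the factor Eya1, which was lower (-0.50, adjusted p = 0.03) but lost its call without any of 8 single libraries (adjusted p up to 0.0695), that is without NAc ZT13 replicate 2, PFC ZT13 replicate 1 or any library of ZT1. The mean level of the list ran from 5.39 to 5.60 on the log2 scale in the NAc libraries and from 3.05 to 4.0 in the PFC libraries. The PFC libraries thus held striatal transcripts at differing levels, lowest in ZT13 replicate 1 and highest in ZT13 replicate 2. Of 24 transcription factors of dorsal forebrain glutamatergic neurons, 20 were lower in NAc and 1 higher (median -1.21), and of 28 genes of cortical projection neurons 20 were lower and 3 higher (median -1.18). Their levels were even in PFC (3.80 to 3.86 and 5.07 to 5.22) and uneven in NAc, where the factors stood at 1.73 to 2.27 at ZT1 and at 2.61 to 2.80 at ZT13. Both labels were therefore borne out in all 12 libraries, and the NAc libraries of ZT13 carried more cortical transcripts than those of ZT1.

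**Figure D2:**
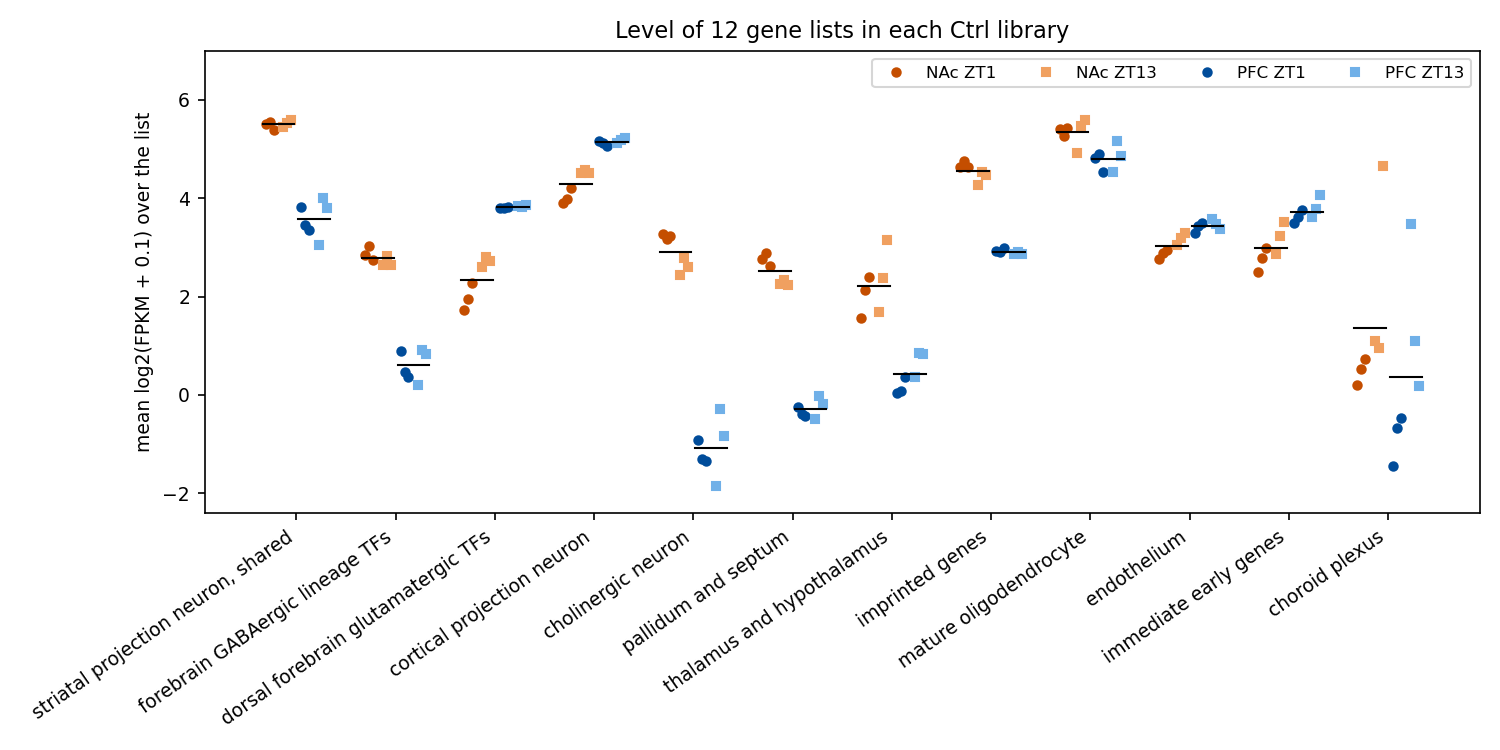
Mean log2(FPKM + 0.1) over the members of 12 gene lists (x axis) in each Ctrl library, with NAc in shades of orange and PFC in shades of blue, ZT1 as dark circles and ZT13 as light squares, and the mean of the 6 libraries of a region as a black bar. Striatal, cholinergic, pallidal and imprinted lists are higher in every NAc library, cortical lists are higher in every PFC library, and choroid plexus genes stand high in 1 NAc and 1 PFC library of ZT13.

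Dopamine receptors showed the striatal pattern. Drd1 (ENSMUSG00000021478, chr13:54051186-54055658, minus strand), the receptor of the D1 type, read 38.7, 36.5 and 33.1 FPKM in NAc at ZT1 and 33.3, 33.4 and 38.5 at ZT13, against 6.07, 4.32 and 3.91 in PFC at ZT1 and 2.7, 9.42 and 6.92 at ZT13 (log2 difference 2.77 ± 0.24, adjusted p = 1.52e-06). The 6 NAc values lay close together while the PFC values spanned more than 3-fold. Drd2, the receptor of the D2 type and of dopamine axons, averaged 37.4 ± 2.76 FPKM (SD, n = 6) in NAc and 4.12 ± 2.25 in PFC (3.37 ± 0.35, adjusted p = 7.72e-06). Drd3, a receptor enriched in the ventral striatum, ran from 1.74 to 4.02 FPKM in NAc and from 0 to 0.206 in PFC (4.16 ± 0.32, adjusted p = 6.63e-07). Drd1 and Drd2 did not differ in level beyond their spread in NAc, and Drd3 stood far below both. Drd5, the other D1-like receptor, was low everywhere at 1.4 ± 0.468 and 0.82 ± 0.188 FPKM, and its call (0.67 ± 0.24, adjusted p = 0.0375) was lost without any of 7 of the 12 libraries (highest adjusted p 0.0853, without NAc ZT1 replicate 2). These were the libraries PFC ZT1 replicates 2 and 3, PFC ZT13 replicate 1, NAc ZT1 replicates 2 and 3 and NAc ZT13 replicates 2 and 3.

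Genes for making and packing monoamines were higher as well. Ddc, which makes dopamine from DOPA, averaged 6.26 ± 1.34 FPKM in NAc and 2.64 ± 0.579 in PFC (1.21 ± 0.17, adjusted p = 8.84e-05), and the vesicular transporter Slc18a2 averaged 2.38 ± 0.683 and 1.08 ± 0.0874 (1.03 ± 0.16, adjusted p = 0.000209). Th, the rate-limiting enzyme, read 2.04 to 6.53 FPKM in NAc and 0.844 to 7.9 in PFC, where the highest value belonged to the library rich in olfactory bulb markers. Its call (1.20 ± 0.42, adjusted p = 0.0341) was lost without PFC ZT1 replicate 3, without any PFC ZT13 library, and without NAc ZT1 replicate 3 or NAc ZT13 replicates 2 or 3 (adjusted p up to 0.0764). The degrading enzymes Maoa (0.37 ± 0.08) and Maob (0.32 ± 0.10) were slightly higher in NAc, with no call for Maob once the 3 libraries rich in neighbouring tissue were left out (adjusted p = 0.133). In all, 9 of 10 tested genes of dopamine receptors and handling were called higher in NAc and none lower. This count depended on the scaling. It was 6 with median-of-ratios scaling, 6 with quantile normalization and 7 when GC content and length were corrected for, again with none lower. At ZT1 alone 6 of the 10 were called higher, and at ZT13 alone also 6.

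Signal transduction downstream of these receptors followed. Dopamine and adenosine receptors of striatal neurons act through the G protein subunit Gnal and adenylyl cyclase 5, cyclic nucleotides are removed by phosphodiesterases, and the phosphoprotein Ppp1r1b (DARPP-32) is a target of the kinase they activate. Adora2a averaged 49.3 ± 2.44 FPKM in NAc and 5.86 ± 3.61 in PFC (3.32 ± 0.37), and the orphan receptor Gpr6, which marks the D2 type, 20.6 ± 1.43 and 2.03 ± 1.07 (3.42 ± 0.25). Adcy5 averaged 109 ± 5.56 and 30.1 ± 3.26 (1.85 ± 0.07, adjusted p = 1.19e-08). Ppp1r1b ran from 186 to 363 FPKM in NAc and from 47.1 to 86 in PFC (2.06 ± 0.17), Pde10a from 50.3 to 105 and from 8.64 to 27.9 (2.28 ± 0.22) and Pde1c from 3.81 to 7.83 and from 0.627 to 1.77 (2.32 ± 0.17). The cortical cyclase Adcy1 ran the other way, from 13.5 to 29.7 FPKM in NAc and from 60.1 to 101 in PFC (-1.99 ± 0.19, adjusted p = 4.5e-06). Of 40 genes of cyclic nucleotide signaling, 22 were higher in NAc and 7 lower, with a median log2 difference of 0.23.

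Regulators of G protein signaling, which speed the turn-off of G proteins, also split by region. Rgs9, whose long form serves striatal neurons, ran from 111 to 137 FPKM in NAc and from 6.02 to 26.5 in PFC (3.01 ± 0.28, adjusted p = 3.17e-06). Rgs8 (1.35 ± 0.07), Rgs10 (1.08 ± 0.11) and Rgs2 (0.96 ± 0.08) were higher in NAc too. Rgs4 ran from 63.4 to 93 FPKM in NAc and from 153 to 178 in PFC (-1.09 ± 0.09), and Rgs6 averaged 7.06 ± 2.23 and 16.5 ± 3.48 (-1.25 ± 0.17). Of the 17 family members tested, 9 were higher and 5 lower.

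Neuropeptide precursors moved in both directions, with 12 of 22 higher in NAc and 7 lower. Penk, the enkephalin precursor of the D2 type, was the most abundant of those higher, with 525, 402 and 442 FPKM in NAc at ZT1 and 357, 387 and 414 at ZT13 against 51.8, 29.3 and 30.6 and then 23.7, 86.5 and 64 in PFC (3.29 ± 0.28, adjusted p = 1.34e-06). Tac1, the substance P precursor of the D1 type, averaged 149 ± 21.3 and 20.1 ± 9.46 FPKM (3.00 ± 0.25, adjusted p = 1.26e-06), and Pdyn, the dynorphin precursor of the same cells, 48.4 ± 11.7 and 10.7 ± 2.21 (2.16 ± 0.16, adjusted p = 6.42e-07). In none of the 3 genes did the NAc and PFC values overlap. Nts, the neurotensin precursor, read 36.6, 38 and 37.9 FPKM in NAc at ZT1 and 21.3, 25.6 and 13.4 at ZT13, and at most 2.87 in PFC. Cartpt (2.20 ± 0.23), the precursor of a feeding-related peptide, and the granin Scg2 (1.41 ± 0.08) were higher without overlap, and Pnoc (0.66 ± 0.18), the nociceptin precursor, with overlap and with no call once the 3 libraries rich in neighbouring tissue were left out (0.58, adjusted p = 0.0702). Of the promoters printed above, those of Tac1 and Nts belong to this group.

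A second set of peptide genes was high in some NAc libraries only. Oxt, the oxytocin precursor, read 1.34, 10.1 and 45.1 FPKM in NAc at ZT1 and 0.917, 43.7 and 74.7 at ZT13, and 0.0759 to 2.93 in PFC (4.10 ± 1.05, adjusted p = 0.0068). Avp, the vasopressin precursor, read 0.331, 1.95 and 7.66 and then 2.15, 34 and 43.4 FPKM in NAc, and 0.181 to 3.99 in PFC (2.54 ± 0.82, adjusted p = 0.0232). The same libraries were high for both genes, and the groups overlapped. Gal, the galanin precursor, stood at 0.155 FPKM in NAc ZT13 replicate 1 and at 3.71 to 15.4 in the other NAc libraries (4.44 ± 0.82), and Trh ran from 1.42 to 19.2 (2.58 ± 0.60). Of 11 tested markers of thalamus and hypothalamus, a list that holds Oxt and Avp themselves, 9 were higher in NAc, both among them. The mean level of these markers ran from 1.56 to 3.15 over the NAc libraries and from 0.04 to 0.84 over the PFC libraries. Since Oxt and Avp enter this mean, its range is no separate measure of the tissue beside them. Their part in the result was not tested. Without the 3 libraries rich in neighbouring tissue, Oxt (3.30, adjusted p = 0.0718) and Avp (1.66, adjusted p = 0.188) were no longer called. Avp was also lost without PFC ZT13 replicate 1, NAc ZT1 replicate 3 or NAc ZT13 replicates 2 or 3 alone (adjusted p up to 0.055). Tac2 (0.83 ± 0.32, adjusted p = 0.0488) was lost without any PFC library and without NAc ZT1 replicate 3 or NAc ZT13 replicates 2 or 3 (adjusted p up to 0.109).

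Cck, the cholecystokinin precursor of cortical neurons, led the peptides of PFC with 466, 338 and 465 FPKM at ZT1 and 470, 488 and 593 at ZT13, against 18.3, 39 and 60.1 and then 46.8, 135 and 122 in NAc (-3.03 ± 0.33, adjusted p = 1.13e-05). Its NAc values were the more variable ones and still lay under every PFC value. Vip, which marks a class of cortical interneurons, ran from 21.4 to 24.2 FPKM in PFC and from 2.33 to 6.66 in NAc (-2.24 ± 0.18, adjusted p = 1.11e-06). Grp (-2.42 ± 0.37), Cort (-1.74 ± 0.21), Adcyap1 (-1.03 ± 0.21), Npy (-0.75 ± 0.12) and Vgf (-0.55 ± 0.08) were lower in NAc as well. Sst, the somatostatin precursor, was level at 220 ± 38.6 FPKM in NAc and 219 ± 29.1 in PFC (SD, n = 6 each), with a standard error of 0.12 around a log2 difference that rounds to 0. Crh (0.31 ± 0.15, adjusted p = 0.118) and Nmb (-0.16 ± 0.23, adjusted p = 0.608) were not called.

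**Figure D3:**
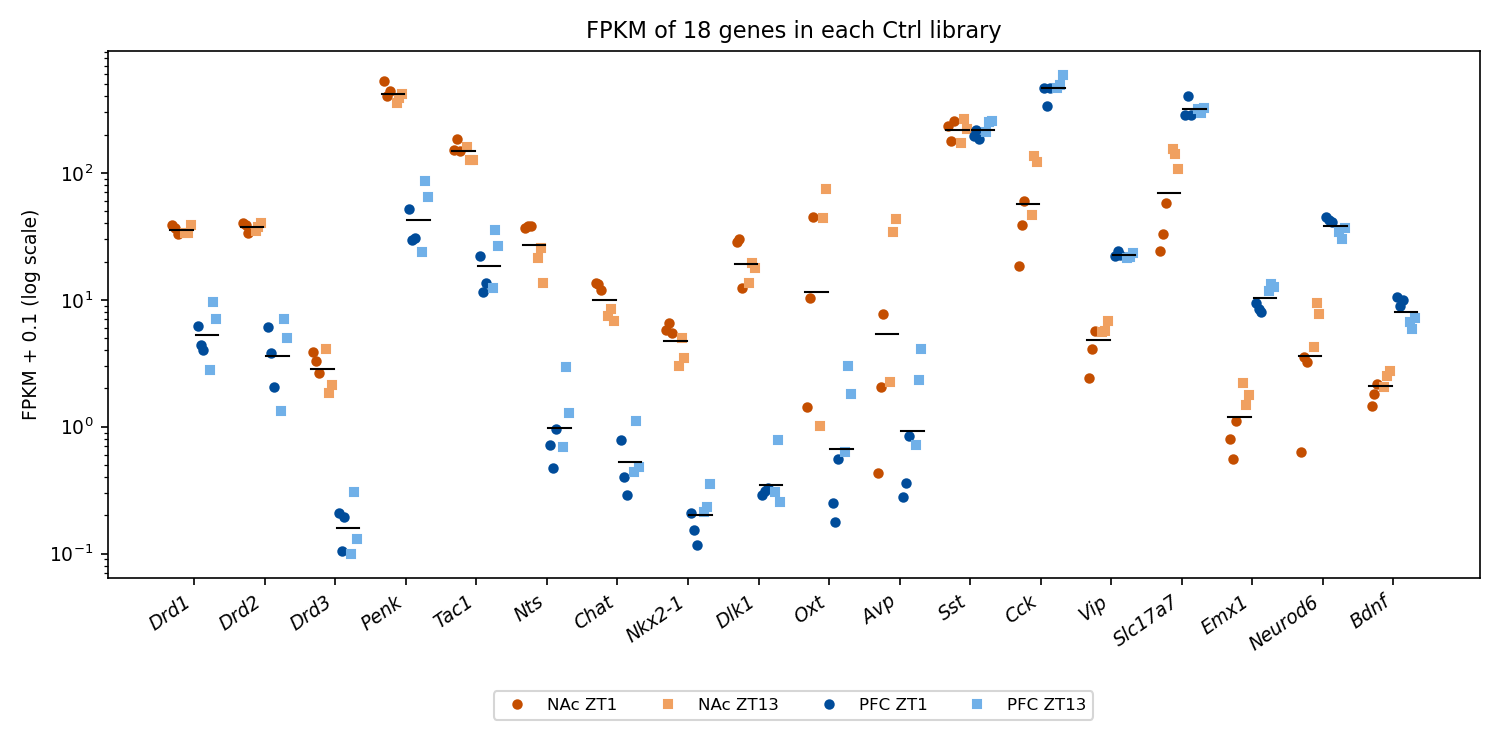
FPKM + 0.1 on a log scale (y axis) of 18 genes (x axis) in each of the 12 Ctrl libraries, with NAc in orange and PFC in blue, ZT1 as circles and ZT13 as squares, and a black bar at the geometric mean of each region. The regions do not overlap for the dopamine receptors, Penk, Tac1, Nts, Chat, Nkx2-1 and Dlk1 (higher in NAc) and for Cck, Vip, Slc17a7, Emx1, Neurod6 and Bdnf (lower in NAc), they coincide for Sst, and Oxt and Avp spread widely within NAc.

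Receptors for peptides changed in both directions too. Of 27 tested, 15 were higher in NAc and 7 lower. Calcr, the calcitonin receptor, ran from 1.01 to 3.57 FPKM in NAc and from 0 to 0.0467 in PFC (4.39 ± 0.29, adjusted p = 1.99e-07), which placed PFC at the limit of detection. The tachykinin receptors Tacr3 (4.14 ± 1.4 against 0.205 ± 0.133 FPKM, 3.84 ± 0.32) and Tacr1 (6.21 ± 1.15 against 0.636 ± 0.216 FPKM, 3.14 ± 0.17) were higher, as was the galanin receptor Galr1 (3.12 ± 0.27). The receptors of PFC were Cckbr, the brain receptor of cholecystokinin, at 26.3 ± 3.36 FPKM against 6.05 ± 1.95 in NAc (-2.15 ± 0.17, adjusted p = 8.32e-07), Crhr1 at 12.4 ± 0.541 against 4.66 ± 0.499 (-1.40 ± 0.08, adjusted p = 5.3e-08), and the somatostatin receptors Sstr3 (-1.60 ± 0.16) and Sstr2 (-1.11 ± 0.14). Precursor and receptor lay on the same side for Tac1 with Tacr1, Gal with Galr1 and Cck with Cckbr. In contrast, Sst was level and Crh was not called, while Sstr2, Sstr3 and Crhr1 were lower in NAc. Other pairs were not compared here.

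Serotonin receptors were higher in NAc for 7 of 11 tested and lower for 2. Htr2c ran from 23.1 to 34.8 FPKM in NAc and from 2.86 to 6.03 in PFC (2.67 ± 0.15, adjusted p = 6.52e-08), Htr1b from 8.39 to 10.1 and from 1.52 to 3.09 (1.94 ± 0.13), and Htr4 from 1.45 to 3.3 and from 0.0699 to 0.383 (2.97 ± 0.27). Htr3a, the ion channel of some cortical interneurons, was lower (-0.92 ± 0.17), as was Htr5a (-0.53 ± 0.08). Of 8 acetylcholine receptors all were called, 5 higher and 3 lower. The muscarinic receptors parted: Chrm5 (3.07 ± 0.28), Chrm4 (0.76 ± 0.11) and Chrm2 (0.72 ± 0.11) were higher in NAc, whereas Chrm1 (18 ± 3.6 against 29.9 ± 3.7 FPKM, -0.74 ± 0.07) and Chrm3 (-0.93 ± 0.17) were lower. Among the adrenergic, adenosine, histamine and cannabinoid receptors, 4 of 14 were higher and 5 lower. These are 28.6% and 35.7%, against 29.8% and 15.4% over all genes tested, so the share higher lay near that of all genes. The alpha-1 and beta receptors Adra1d, Adra1b (-1.39 ± 0.19) and Adrb1 (-1.02 ± 0.12) were lower in NAc, and the alpha-2 receptors Adra2c (0.93 ± 0.12) and Adra2a (0.62 ± 0.11) were higher.

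Cholinergic genes were all called. The 8 tested were higher in NAc by at least 2-fold without overlap, with a median log2 difference of 4.07, or of 2.57 with a pseudocount of 1. Chat, which makes acetylcholine, read 13.6, 13.2 and 11.9 FPKM in NAc at ZT1 and 7.34, 8.29 and 6.67 at ZT13, and 0.192 to 1 in PFC (4.22 ± 0.31, adjusted p = 4.38e-07). The peptidase Ecel1 (4.13 ± 0.24) and Lhx8 behaved alike. Lhx8 and Nkx2-1 also mark the pallidum and septum, neighbours of NAc whose cells share the origin of cholinergic neurons, and all 12 genes of that list were higher in NAc (median 3.01). Nkx2-1 read 5.7, 6.41 and 5.38 FPKM in NAc at ZT1 and 2.92, 4.89 and 3.36 at ZT13, and at most 0.254 in PFC. The level of the pallidum and septum list was 2.62 to 2.89 in the NAc libraries of ZT1 and 2.24 to 2.34 in those of ZT13, and that of the cholinergic list 3.17 to 3.27 and 2.44 to 2.78. Both lists were thus lower in every NAc library of ZT13 than in any of ZT1, where the cortical lists were higher, and the part of neighbouring tissue in these results was not tested.

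Imprinted genes, which are expressed from a single parental copy and many of which act in feeding and growth circuits, were higher in NAc for 15 of 19 tested and lower for 2 (median 1.19). After Dlk1 and Calcr came Magel2, with 3.46 to 6.85 FPKM in NAc and 0.136 to 0.488 in PFC (3.89 ± 0.24, adjusted p = 1.15e-07), and Asb4, with 1 to 3.39 and 0.0284 to 0.338 (3.16 ± 0.25). The growth inhibitor Cdkn1c (1.8 ± 0.48 against 4.05 ± 0.728 FPKM, -1.15 ± 0.14) and Snrpn (-0.34 ± 0.06) were lower. The level of the list ran from 4.27 to 4.76 in NAc and from 2.87 to 2.98 in PFC. Allelic expression was not measured.

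Transcription factors of the GABAergic lineages of the forebrain were higher in NAc for 16 of 18 tested and lower for none (median 1.79). Isl1, which specifies D1 type and cholinergic neurons, ran from 6.04 to 12.4 FPKM in NAc and from 0.0324 to 1.1 in PFC (4.57 ± 0.51, adjusted p = 1.38e-05), and Gbx1 from 1.55 to 5.29 and from 0.0117 to 0.154 (4.29 ± 0.32). The retinoic acid pathway, which patterns the striatum, divided by member, with 5 of 15 higher and 6 lower. The share higher (33.3%) lay near the 29.8% over all genes tested, and the share lower was 40% against 15.4%. The receptors Rarb (23.5 ± 2.48 against 3.89 ± 1.03 FPKM, 2.60 ± 0.16, adjusted p = 1.04e-07) and Rxrg (19.7 ± 3.27 against 4.81 ± 2.15 FPKM, 2.13 ± 0.28) and the binding protein Crabp1 (3.12 ± 0.31) were higher in NAc. Rara (-0.87 ± 0.12) and the carrier Rbp4 (-1.24 ± 0.15) were lower.

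On the cortical side, Neurod6, a factor of pyramidal neurons, read 45.1, 42.1 and 41.2 FPKM in PFC at ZT1 and 33.9, 30.1 and 36.8 at ZT13, against 0.537, 3.46 and 3.15 and then 4.12, 9.31 and 7.65 in NAc (-3.39 ± 0.47, adjusted p = 8.29e-05). Its values were low in every NAc library, and lowest in the libraries of ZT1. Emx1 (-3.12 ± 0.18, adjusted p = 7.87e-08), which marks the dorsal forebrain, and Neurod2 (-2.90 ± 0.29) were lower in NAc, and so was Tbr1, a factor of deep and subplate neurons, with 20.2 to 48.5 FPKM in PFC and 4.44 to 15 in NAc (-2.07, adjusted p = 1.75e-05). The single factor called higher was Tle4 (0.49 ± 0.15, adjusted p = 0.0164), which striatal neurons express too and which was not called without the 3 libraries rich in neighbouring tissue (0.38, adjusted p = 0.0503). Without NAc ZT13 replicate 1, 2 of the factors and 5 of the projection neuron genes were called higher. Among genes of mature projection neurons, the postsynaptic calmodulin-binding protein Nrgn averaged 199.8 ± 88.6 FPKM in NAc and 923 ± 169 in PFC (-2.31 ± 0.19), the Nogo receptor Rtn4r 7.76 ± 3.58 and 46.4 ± 5.06 (-2.71 ± 0.20), and the zinc transporter Slc30a3 13.4 ± 10.7 and 58 ± 7 (-2.48 ± 0.34). Syt6 (1.78 ± 0.24), Crym (1.32 ± 0.15) and Cdh13 (0.76 ± 0.12) of the same list were higher in NAc without overlap.

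The transmitter genes matched. Slc17a7 (VGLUT1), the vesicular glutamate transporter of cortex, read 283, 400 and 287 FPKM in PFC at ZT1 and 319, 297 and 326 at ZT13, against 24.1, 32.9 and 57.9 and then 154, 140 and 107 in NAc (-2.20 ± 0.32, adjusted p = 0.000136). Its NAc values were thus higher in every ZT13 library than in any ZT1 library. The subcortical transporters Slc17a8 (1.80 ± 0.17) and Slc17a6 (1.36 ± 0.17) were higher in NAc. Of 27 glutamate transporters and receptors, 14 were higher and 6 lower. The presynaptic receptor Grm2 averaged 2.11 ± 0.802 FPKM in NAc and 14 ± 0.742 in PFC (-2.74 ± 0.17, adjusted p = 1.15e-07), and the NMDA receptor subunit Grin2a 9.86 ± 2.59 and 19.8 ± 3.59 (-1.02 ± 0.17), whereas the kainate receptor Grik2 (1.27 ± 0.11) and Grm4 (1.07 ± 0.06) were higher. Of 22 GABA genes, 13 were higher and 2 lower. Gad2, which makes GABA, averaged 134 ± 21.4 and 26.7 ± 3.45 FPKM (2.31 ± 0.08, adjusted p = 4.68e-09), and the vesicular transporter Slc32a1 93.5 ± 11.5 and 29.5 ± 2.69 (1.66 ± 0.09). Among receptor subunits, the rare theta and epsilon subunits Gabrq and Gabre (3.82 ± 0.29), both X-linked, were higher, and Gabra3 (-0.47 ± 0.07) and the GABA-B subunit Gabbr2 (-1.22 ± 0.12) were lower.

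Of 16 interneuron markers, 6 were higher in NAc and 6 lower, with a median that rounds to 0. Each direction held 37.5%, against 29.8% higher and 15.4% lower over all genes tested. The 6 higher became 3 without PFC ZT1 replicate 2, PFC ZT13 replicate 2 or NAc ZT13 replicates 2 or 3, and also after median-of-ratios scaling and quantile normalization. Lhx6, a factor of interneurons from the medial ganglionic eminence, was higher at 13.1 ± 4.18 against 5.48 ± 0.385 FPKM (1.17 ± 0.18), and so was Calb2 (1.69 ± 0.32), with overlap. Pvalb, which marks fast-spiking cells, was lower at 16.8 ± 5.04 against 39.9 ± 8.8 FPKM (-1.27 ± 0.15, adjusted p = 2.91e-05), and Crhbp at 4.84 ± 1.02 against 11.4 ± 0.852 (-1.24 ± 0.13). Together with Sst, which was level, and Vip, which was lower, the marker genes of different interneuron classes took 3 different courses.

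**Figure D4:**
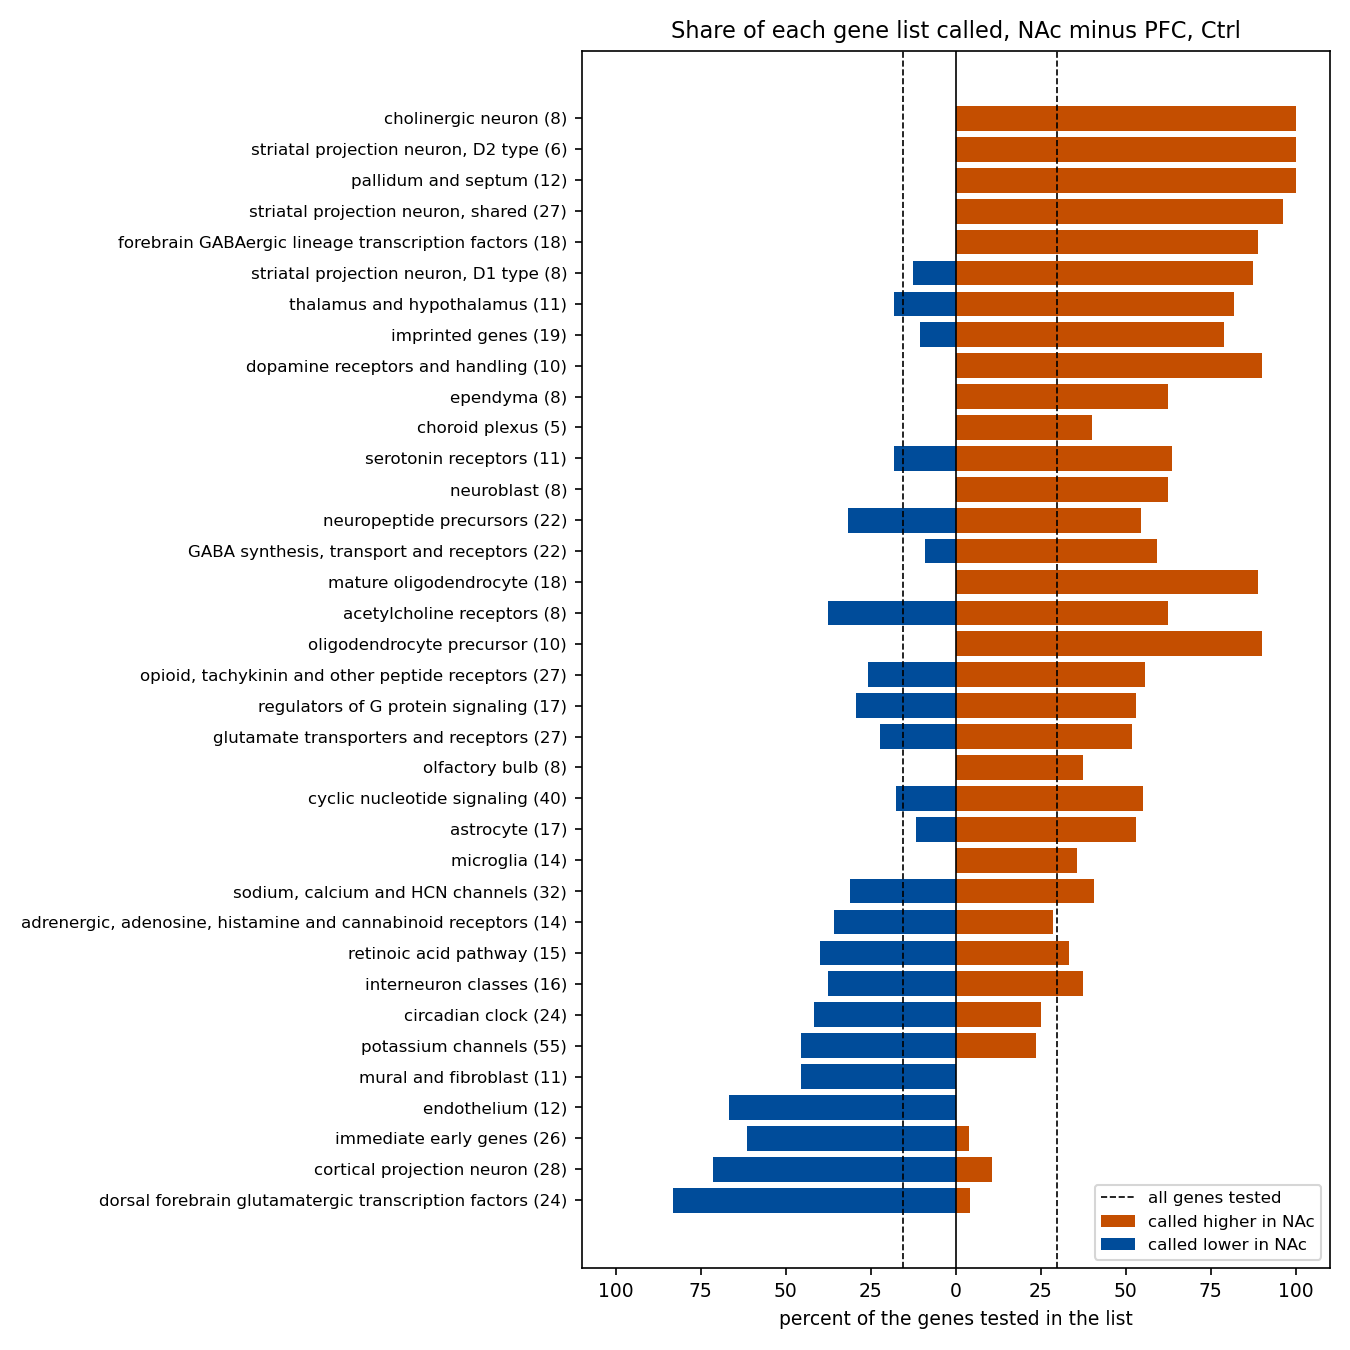
Percent of the genes tested in each of the 36 lists (number in brackets) that were called higher in NAc (orange, to the right) or lower (blue, to the left), ordered by the median log2 difference. Dashed lines mark the shares over all 15455 genes tested, 29.8% higher and 15.4% lower. Cholinergic, D2 type and pallidal lists reach 100% on the right, dorsal glutamatergic factors and cortical projection genes lie at the bottom, and interneuron and channel lists extend to both sides.

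Ion channels were distributed over both regions. Of 55 potassium channel genes, 13 were higher in NAc and 25 lower (median -0.26), that is 23.6% and 45.5%. Over all genes tested these shares were 29.8% and 15.4%. Kcna5 ran from 7.61 to 10.5 FPKM in NAc and from 0.669 to 1.79 in PFC (2.84 ± 0.18, adjusted p = 1.38e-07), and the calcium-activated Kcnn3 (1.60 ± 0.09), Kcna4 (1.20 ± 0.11) and the subunit Kcnab1 (1.08 ± 0.08) were higher as well. Kcnk4 ran from 0.922 to 2.71 FPKM in NAc and from 7.96 to 11.3 in PFC (-2.60 ± 0.16, adjusted p = 1.28e-07), followed by the modulatory subunits Kcns1 (-2.07 ± 0.15) and Kcnv1 (-1.52 ± 0.14) and the inward rectifier Kcnj6 (-1.47 ± 0.29). Of 32 sodium, calcium and HCN channel genes, 13 were higher and 10 lower. Genes named for auxiliary channel subunits stood on either side. Higher were Cacna2d2 at 37 ± 6.52 FPKM in NAc and 8.21 ± 0.629 in PFC (2.14 ± 0.10, adjusted p = 3.03e-08), Scn4b (1.68 ± 0.15) and Cacng5 (1.60 ± 0.22). Lower were Cacng3 at 28 ± 2.16 and 47 ± 5.47 FPKM (-0.74 ± 0.07, adjusted p = 5.06e-06) and Cacng2 (-0.58 ± 0.09).

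Immediate early genes, which are induced by neuronal activity, were lower in NAc for 16 of 26 tested and higher for 1 (median -0.58). Bdnf, a neurotrophin induced by activity, ran from 1.37 to 2.63 FPKM in NAc and from 5.83 to 10.4 in PFC (-1.95 ± 0.18, adjusted p = 2.82e-06). Ier5 (-1.60 ± 0.10), Nptx2 (-1.41 ± 0.20) and Arc (-1.37 ± 0.25) were lower, Arc with overlap at 10.6 to 46 and 23.2 to 131 FPKM. Fos, at 9.22 ± 3.41 FPKM in NAc and 13.4 ± 5.37 in PFC, was not called (-0.54, adjusted p = 0.0606), and Sik1 was higher (0.74 ± 0.16, adjusted p = 0.00193). The clock genes gave a mixed list, with 6 of 24 higher and 10 lower, and with 3 higher and 13 lower after median-of-ratios scaling, 3 and 12 after quantile normalization and 4 and 12 when GC content and length were corrected for. The output factor Hlf (18.5 ± 2.06 against 45.8 ± 10.3 FPKM, -1.27 ± 0.14), the clock repressor Bhlhe40 (-1.03 ± 0.07, adjusted p = 1.6e-07) and the layer 4 receptor Rorb (-1.07 ± 0.11) were lower in NAc, and Fbxl21 (3.84 ± 0.239 against 1.6 ± 0.261 FPKM, 1.23 ± 0.10) was higher. Clock, a core component, was higher at 9.05 ± 2.32 against 6.47 ± 1.12 FPKM (0.46 ± 0.15, adjusted p = 0.0239), a call lost without PFC ZT13 replicate 2 or 3 (adjusted p up to 0.0539) and without the 3 libraries rich in neighbouring tissue (adjusted p = 0.051).

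Glial and vascular genes differed less. Mature oligodendrocyte genes, which make myelin, were higher in NAc for 16 of 18 tested with a median of 0.52, led by Ermn at 17.4 ± 3.49 FPKM against 8.84 ± 1.68 (0.97 ± 0.13, adjusted p = 6.31e-05). Without the 3 libraries rich in neighbouring tissue 5 of the 18 were called. Precursor genes were higher for 9 of 10 (median 0.47), and Lhfpl3 stood out at 25.9 ± 3.13 against 8.37 ± 0.771 FPKM (1.62 ± 0.08, adjusted p = 3.71e-08). Astrocyte genes were higher for 9 of 17 and lower for 2 with a median of 0.22. After median-of-ratios scaling 4 were higher and 3 lower. Etnppl (1.01 ± 0.09) was the astrocyte gene of largest difference. For microglia the counts were 5 of 14 higher and none lower, and 1 higher after median-of-ratios scaling. The 5 make up 35.7%, near the 29.8% called higher over all genes tested. Endothelial genes were lower in NAc for 8 of 12 and higher for none (median -0.43), with Esam (-0.78 ± 0.11) and the tight junction gene Cldn5 (-0.66 ± 0.10) first, and mural and fibroblast genes were lower for 5 of 11.

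Lists of neighbouring structures were measured beside these results. Ependymal genes were higher in NAc for 5 of 8 (Foxj1 1.02 ± 0.20), neuroblast genes for 5 of 8 (Igfbpl1 2.40 ± 0.33), olfactory bulb genes for 3 of 8 (Pcp4l1 1.59 ± 0.12) and choroid plexus genes for 2 of 5 (Clic6 3.48 ± 0.45), and in none of these lists was a gene called lower. The shares for the olfactory bulb (37.5%) and choroid plexus (40%) lay near the 29.8% called higher over all genes tested. Choroid plexus levels ran from 0.19 to 4.66 in NAc and from -1.44 to 3.47 in PFC, and the highest value of each region belonged to a ZT13 library. Without these, the other NAc libraries reached 1.10 and the other PFC libraries 1.10. Without the 3 libraries 5666 genes were called in place of 6980. In their absence the genes called higher numbered 8 rather than 12 for neuropeptide precursors, 7 rather than 9 for dopamine genes, 6 rather than 9 for thalamus and hypothalamus, 5 rather than 9 for astrocytes, 2 rather than 5 for microglia, 4 rather than 6 for interneurons and 4 rather than 6 for the clock. Of the retinoic acid genes 3 rather than 6 were lower, of ependymal genes 3 of 5 tested were higher, and of 4 choroid plexus genes tested 3 were higher and 1 lower. The striatal and cortical lists moved by at most 1 gene in each direction. Eya1, Tac2 and Drd5 were not called either (adjusted p = 0.157, 0.24 and 0.154). Of single libraries, leaving out NAc ZT1 replicate 2, any of NAc ZT13 replicates 2 and 3 or PFC ZT13 replicate 3 left 3 ependymal genes higher, leaving out NAc ZT13 replicate 2 left 5 astrocyte genes higher, and leaving out any of NAc ZT1 replicates 1 and 3, PFC ZT1 replicates 1 and 2 or PFC ZT13 replicates 2 and 3 left 3 microglial genes higher. The astrocyte genes called lower fell to 0 or 1 without any of 9 libraries.

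The difference between the regions was next examined by time. At ZT1 alone 5874 genes were called (3990 higher in NAc, 1884 lower) and at ZT13 alone 3240 (1903 and 1337). Over the strict set the median log2 difference was 1.58 at ZT1 and 1.43 at ZT13 for the genes higher in NAc. It was -1.69 and -1.32 for those lower. Closer to 0 at ZT13 were 67.3% of the genes higher in NAc and 80.6% of those lower. Since both times entered the choice of that set, these medians are a description. Tested directly, no gene was called for a difference that depended on the time (limma, region-by-time term, smallest adjusted p 0.0521). With 3 libraries for each region and time, this does not show that the difference was the same at both times. At an unadjusted P under 0.05 stood 2261 genes (14.6%), 929 with a larger and 1332 with a smaller NAc minus PFC value at ZT13. The count of genes called moved with the processing, to 106 with all 24 libraries in the fit and to 95 without PFC ZT13 replicate 1. Slc17a7 went from -3.15 at ZT1 to -1.25 at ZT13 (adjusted p = 0.0974), Neurod6 from -4.46 to -2.31 (adjusted p = 0.235), Pdyn from 2.60 to 1.71 (adjusted p = 0.152) and Bdnf from -2.45 to -1.45 (adjusted p = 0.135). In contrast, Drd2 (3.36 and 3.38) and Rgs9 (2.99 and 3.04) kept their values. The cortical lists given above were higher in the NAc libraries of ZT13 and moved with these differences, and their part was not tested.

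**Figure D5:**
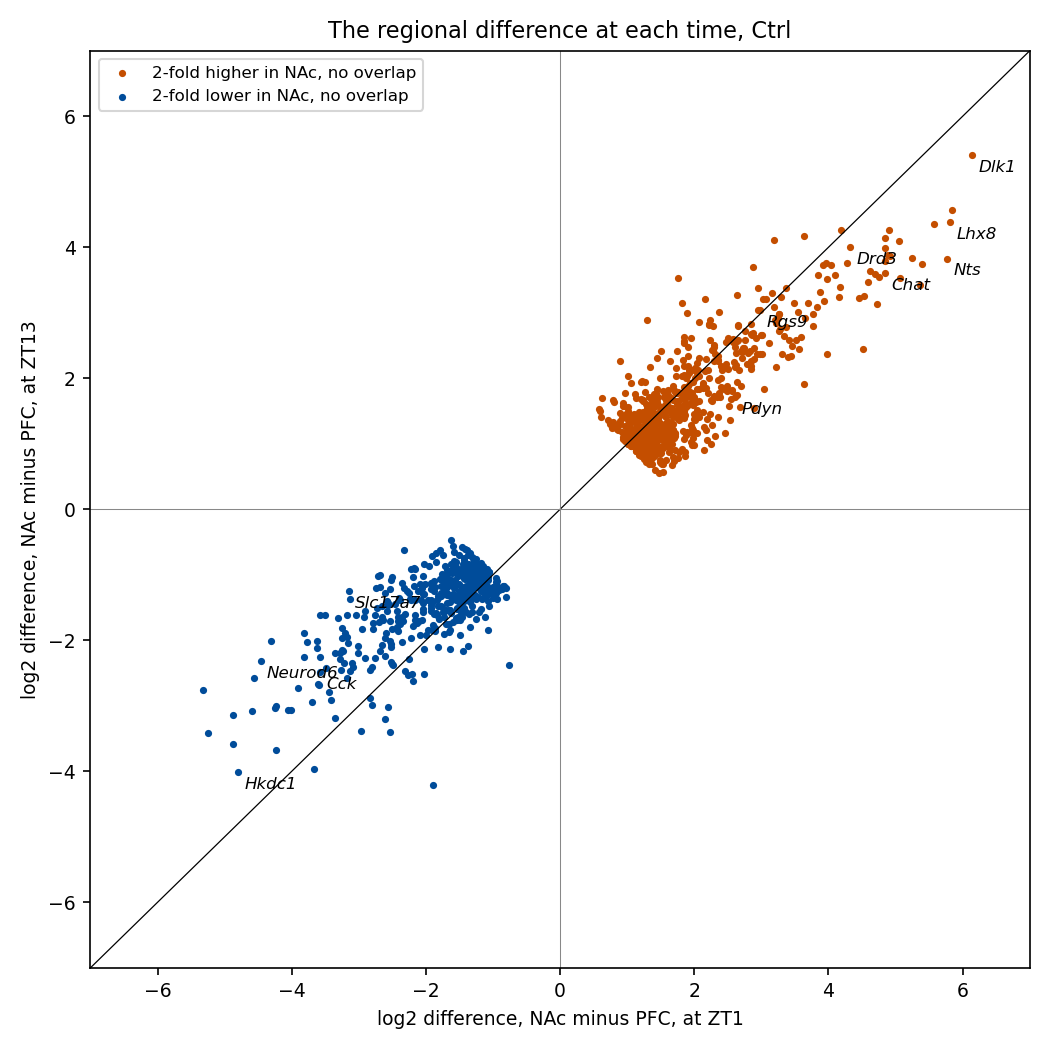
Log2 difference, NAc minus PFC, of the 1123 genes of the strict set at ZT1 (x axis) and at ZT13 (y axis), with genes higher in NAc in orange, genes lower in blue and the line of equal differences in black. Every gene keeps its side at both times, which the absence of overlap requires. Most genes lower in NAc lie above the line and most genes higher in NAc below it, that is closer to 0 at ZT13.

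In the CJL mice, which share no library with Ctrl, the same fit called 6095 of 15555 genes higher in NAc (39.2%) and 2968 lower (19.1%). Of the 6897 Ctrl calls that were tested there, 5868 (85.1%, and 64.7% of the CJL calls) were called in the same direction and 3 in the opposite one, and of the 1094 strict genes tested 1083 (99%) were called in the same direction. The striatal genes read lower values than in Ctrl, 2.01 for Drd1, 2.67 for Drd2, 2.71 for Penk and 2.48 for Tac1, and the hypothalamic peptides higher ones, 8.33 for Oxt and 5.34 for Avp. The thalamus and hypothalamus list, which holds Oxt and Avp, was set against the median of all NAc libraries. On that log2 scale it ran from -0.41 to 1.71 in NAc of CJL and from -1.02 to 0.91 in NAc of Ctrl. The part of neighbouring tissue was not tested. Dlk1 read 6.20, Chat 3.71 and Cck -3.00, against 5.77, 4.22 and -3.03 in Ctrl. Whether any of these differed between the lighting groups was not tested.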

How the data were processed

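Bulk mRNA libraries of NAc and PFC were sequenced as paired ends of 150 bases by the authors, who checked reads with FastQC 0.11.9, aligned them to the mouse genome (build mm10) with HISAT2 and computed FPKM with StringTie, and the deposited FPKM values of single libraries were used here. The use of strand is not given in the sources used here. The 8 tables of the authors' own comparisons (DESeq2 fold changes and p-values) were not used. FPKM values cannot be returned to whole reads for most genes, so no count test was run, and low genes are the least precise.

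Genes at 1 FPKM or more in at least 3 of 12 libraries were kept (15455 of 48526) and log2(FPKM + 0.1) was fitted with limma 3.58.1 in R 4.3.3 (region and time as terms, empirical Bayes with a trend, Benjamini-Hochberg adjustment over all genes, threshold 0.05). Region by time was fitted as an interaction, and CJL libraries by the same model. The fit was tested on simulated data. Figures and summaries were made in Python 3.11.15 (matplotlib 3.10.9 for drawing, with pandas 2.3.3 and numpy 2.4.6 for tables). Coordinates are those of GENCODE M21 on mm10, in which 48144 of the 48526 gene IDs were found.

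Genes named in the text were the 12 of largest difference in each direction among called genes without overlap that had an established name and a mean of at least 2 FPKM in the higher region, up to 4 called members of each list in each direction by size of the difference (mean of at least 1 FPKM in the higher region), and the dopamine and neuropeptide genes, with Tbr1, Fos, Foxp1 and Six3 added after their values were seen. A few genes that this rule names are not reported here. The comparison, lists and members were chosen with earlier results of these data known. Replicate numbers were not taken as pairs: the deviations of same-numbered NAc and PFC libraries correlated at 0.0205 to 0.144 (6 pairs) and those of other libraries of the same time at -0.172 to 0.111, and the labels name no shared mouse. Alternatives were another pseudocount, no filter, 4 other scalings, a replicate block, no time term, all 24 libraries in the fit, each time alone, leaving out libraries rich in neighbouring tissue and leaving out each library in turn.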

Additional observations from a re-analysis of the deposited data

Results flagged for a closer look

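In 492 groups of 6 libraries (lists and named genes in each region) 24 had a single library far outside the range of the other 5 by Dixon's ratio, near the 5% that chance gives. Of the lists, choroid plexus genes stood at a mean log2 level of 4.66 in NAc ZT13 replicate 3 (others 0.19 to 1.10), microglial genes at 3.62 in NAc ZT13 replicate 1 (others 3.84 to 3.96) and retinoic acid genes at 1.90 in PFC ZT13 replicate 1 (others 2.12 to 2.20).

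Of the genes, NAc ZT13 replicate 1 gave 7. It was low for the X-linked genes Arhgap36 (3.31 FPKM, others 9.82 to 10.9), Gabrq (2.13, others 6.01 to 10.4) and Gabre (0.654, others 1.94 to 2.37), for the peptide genes Gal (0.155, others 3.71 to 15.4) and Pnoc (2.31, others 3.57 to 4.63) and for Th (2.04, others 4.5 to 6.53), and high for Rora (6.5, others 4.14 to 4.77). NAc ZT13 replicate 3 was low for Pde10a (50.3 FPKM). In NAc at ZT1, replicate 3 was high for Htr1d (2.55), replicate 2 for Rorb (2.82), and replicate 1 was low for the endothelial gene Cdh5 (2.01).

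PFC ZT1 replicate 1, which carried olfactory bulb markers, was high for Kcna4 (5.03 FPKM) and low for Kcnk4 (7.96) and Hlf (26.7). PFC ZT13 replicate 1, which carried choroid plexus markers, was high for Otx2 (2.27, others 0 to 0.207), a choroid plexus gene, and for Rxra (6.96), and low for Grp (3.52). PFC ZT13 replicate 2, the PFC library of highest striatal level, was high for Dlk1 (0.685) and Cartpt (6.39), and replicate 3 was low for Rora (4.87) and high for Calcr at a level near 0 (0.0467).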

How the results depend on the processing

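No gene called in the main analysis and again in an alternative turned its direction there. For calls that an alternative did not repeat, the direction was compared only for the named genes, and none of those turned. The 6980 calls became 6112 to 7085 when single libraries were left out, and 5666 without the 3 libraries rich in neighbouring tissue. With the replicate number as a block, 6756 genes were called, 6443 of them among the 6980. Whether equal numbers mark the same mouse is not given in the labels. At ZT13 alone 3240 genes were called (1903 higher, 1337 lower), with 6 libraries in place of 12, and in CJL mice at ZT1 alone 5940. The genes at least 2-fold apart without overlap fell from 1123 to 686 with a pseudocount of 1, which shrinks the differences of low genes. The region-by-time count, 0 in the main analysis, was 10 with median-of-ratios scaling, 11 with quantile normalization, 8 without mitochondrial genes, 17 with the correction for GC content and length, 106 with all 24 libraries and 2 without the libraries rich in neighbouring tissue, and ran from 0 to 95 when single libraries were left out. The cause was not tested. Of 5104 values of 213 named genes under the alternatives, 212 lost and 1 gained a call. Another 10, of genes not called in the main analysis, changed sign. Of 864 list medians, 74 moved by more than the spread between libraries. Depth limits the genes near 0, whose FPKM rests on few fragments and whose differences depend on the pseudocount.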
